A study of Homo sapiens with 9 samples.

Results

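To see what temozolomide (TMZ) adds to evernic acid (EA), a library of U-87 cells treated with both was compared with libraries treated with EA alone. U-87 is an established human glioblastoma line. The combination TMZ320EA35 held 35 µM EA and 320 µM TMZ. EA30 and EA45 held 30 and 45 µM EA without TMZ, doses on either side of 35 µM, and Control1, Control2 and Control3 were untreated and gave the baseline. All 6 libraries, of 9 in the series, were made from cells collected after 24 h. Another library of the series, TMZ600, held 600 µM TMZ without EA, also for 24 h. TMZ600 was not part of the main comparison and is set beside it further below. TMZ320EA35, EA30 and EA45 are 1 library each, and no library with 35 µM EA alone belongs to this design. Sequencing libraries covered the 3′ ends of RNA, and the table used here lists counts per RefSeq transcript. Of 159067 transcripts, 628 averaged 10 counts or more across these 6 libraries and were compared. The lowest mean among them was 10 counts and the highest mean left out was 9.83 counts.

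The libraries were shallow. Control1, Control2 and Control3 held 269057, 259753 and 285248 counts. EA30 held 490235 counts, EA45 325812 and TMZ320EA35 213566, the fewest of the 6. Of the 628 transcripts, 12 were listed at 0 in TMZ320EA35, against 2, 1 and 1 in the controls, 0 in EA30 and 1 in EA45. Levels are given as CPM, counts relative to the library size after TMM scaling, and a count of 0 in TMZ320EA35 allows up to 3 counts, or 14.8 CPM, by counting error alone. Where counts are given for a gene instead, they are not scaled for depth, unlike the log2 fold changes.

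The cell line label could be checked on few markers. Of 11 glioblastoma and astroglial markers, SOX4 and NES were tested, TNC had 2 counts in Control3, and VIM, CD44, SOX2, SOX9, GFAP, S100B, CHI3L1 and FABP7 were listed at 0 in the 6 libraries. The 11 markers together had 1300, 1403 and 1446 counts in the controls, 563 in EA30, 157 in EA45 and 68 in TMZ320EA35, most of them on SOX4 and none of them scaled for depth. NES, the other tested marker, had 521, 605 and 573 CPM in the controls, 132 CPM in EA30, 51.6 CPM in EA45 and 109 CPM in TMZ320EA35. In the combination it was between the EA libraries and below the controls, with a log2 fold change of 0.20 against EA alone (SE 0.53, edgeR adjusted p = 0.857). All 23 markers of immune, endothelial, epithelial, fibroblast, neuronal, oligodendrocyte and red cells were listed at 0 in these libraries. ACTB, GAPDH and EEF1A1, which every cell uses, were also listed at 0, so 0 counts did not mean that a gene was silent. The share of other cells, and its part in the results, was not tested. In bulk RNA, fewer cells of a kind and less RNA per cell cannot be told apart.

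TMZ is an alkylating drug that methylates DNA bases. Its O6-methylguanine lesions are removed by MGMT, or else mispair and are processed by mismatch repair into strand breaks over later cell cycles. EA is a depside made by lichens. Wnt signalling, which the study followed in these cells, runs from secreted ligands such as WNT5A through Frizzled receptors to TCF factors in the nucleus.

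Against EA alone, 39 of 628 transcripts differed in TMZ320EA35 (edgeR quasi-likelihood test, adjusted p under 0.05), which is 6.21% of those tested. Falls were more frequent than rises. Lower in the combination were 31 transcripts (4.94%), among them the transcription factor gene SOX4, the corepressor gene NCOR1, the laminin gene LAMC1 and the host RNA of miR-210. Higher were 8 transcripts (1.27%), among them GRWD1, TRIP13, the linker histone gene H1-2 and the mitochondrial genes ND4L and COX1. Over all 628 transcripts the median log2 fold change was -0.10. All 39 lay outside the range between EA30 and EA45, as did 489 of the 628 transcripts (77.9%) irrespective of the test.

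The spread behind this test came from the 3 controls and from the difference between EA30 and EA45, with 3 residual degrees of freedom. The single combination library was assumed to vary like the others. The calls rested on few libraries. Without Control1 or without Control3, edgeR called 0 transcripts, with lowest adjusted p-values of 0.0725 and 0.0553, and 112 and 113 transcripts had an unadjusted p under 0.05, against 143 with all controls. In fits chosen after seeing the data, without the same controls the Wald test of DESeq2 called 26 and 25 transcripts and limma-voom 0 and 0. Without Control2 edgeR called 23, without EA30 65 and without EA45 164. In the fits without EA30 or EA45 the spread came from the controls only, and the EA arm was a single library of another dose. The labels do not say whether the controls came from separate cultures, so the p-values measure the spread between these libraries, which may be technical.

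**Figure D1:**
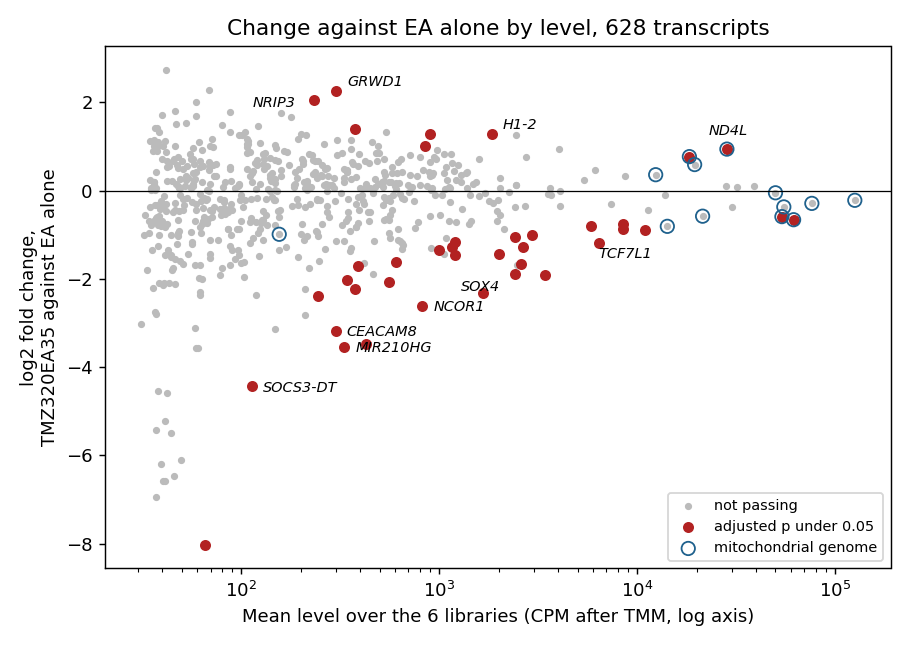
Log2 fold change of TMZ320EA35 against EA alone (vertical axis) against the mean level over the 6 libraries (CPM after TMM, log axis) for 628 transcripts, 1 point each. The 39 transcripts with an adjusted p under 0.05 are red, 31 below and 8 above the line at 0, and the 13 mitochondrial genes are ringed; the lowest point, at -8.02, is CMKLR2-AS, which had 0 counts in TMZ320EA35.

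The rises were led by GRWD1 (NM_031485.4), which encodes a histone-binding WD repeat protein with roles in ribosome biogenesis. It had 339, 308 and 343 CPM in the controls, 104 CPM in EA30, 141 CPM in EA45 and 577 CPM in TMZ320EA35. GRWD1 was lower in both EA libraries than in any control and higher in TMZ320EA35 than in all of them. The log2 fold change against EA alone was 2.25 (SE 0.35, edgeR adjusted p = 0.00866). NRIP3 (XM_024448608.1) had 236, 218 and 181 CPM in the controls, 134 CPM in EA30, 113 CPM in EA45 and 518 CPM in TMZ320EA35, the same order of groups, with a log2 fold change of 2.05 (SE 0.37, edgeR adjusted p = 0.0154). Compared with the controls, the log2 fold change of TMZ320EA35 was 0.81 for GRWD1 (edgeR adjusted p = 0.0837) and 1.29 for NRIP3 (edgeR adjusted p = 0.0168). Without EA30 or EA45 that of GRWD1 passed (edgeR adjusted p = 0.0287 and 0.0305), and without any 1 control that of NRIP3 did not (edgeR adjusted p = 0.0521 to 0.0706). GRWD1 overlaps KCNJ14 and NRIP3 overlaps NRIP3-DT in the annotation, so their reads may be mixed.

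H1-2 (NM_005319.3) encodes a linker histone, which binds between nucleosomes. It had 2106, 2005 and 2129 CPM in the controls, 1057 CPM in EA30, 1135 CPM in EA45 and 2660 CPM in TMZ320EA35. EA alone was below every control and the combination above every control. Against EA alone the log2 fold change was 1.28 (SE 0.22, edgeR adjusted p = 0.0129), whereas against the controls the combination gave 0.35 (edgeR adjusted p = 0.227) and EA alone -0.93 (edgeR adjusted p = 0.0058, or 0.0587 without Control3). The core histone genes H4C3 and H2BC5, the other histone genes tested of 84 listed, had log2 fold changes of 0.63 (edgeR adjusted p = 0.233) and 0.72 (edgeR adjusted p = 0.535) against EA alone. Some histone genes are similar in sequence, and how fully 3′ mRNA libraries capture histone RNA was not tested, so these counts are uncertain.

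TRIP13 (NM_004237.4), an ATPase gene of the spindle checkpoint, and TBC1D16 (XM_017024187.1), a gene for a Rab GTPase-activating protein, were higher in the combination than in the other 5 libraries. TRIP13 had 233, 254 and 290 CPM in the controls, 245 CPM in EA30, 395 CPM in EA45 and 844 CPM in TMZ320EA35. Its log2 fold change against EA alone was 1.40 (SE 0.35, edgeR adjusted p = 0.0395). TBC1D16 had 733, 609 and 643 CPM in the controls, 828 CPM in EA30, 705 CPM in EA45 and 1880 CPM in TMZ320EA35, a log2 fold change of 1.29 (SE 0.25, edgeR adjusted p = 0.0213) against EA alone. OPRD1 (NM_000911.4), the gene of the delta opioid receptor, had 760, 813 and 824 CPM in the controls, 727 CPM in EA30, 622 CPM in EA45 and 1362 CPM in TMZ320EA35, with controls and EA libraries close together. Its log2 fold change against EA alone was 1.01 (SE 0.25, edgeR adjusted p = 0.0389). TRIP13 and TBC1D16 overlap unnamed genes in the annotation. Without Control2 the call of TRIP13 was lost (edgeR adjusted p = 0.0765). The call of OPRD1 was lost with limma-voom (adjusted p = 0.0545) and when low counts were kept (edgeR adjusted p = 0.293), as well as without any 1 of the controls (edgeR adjusted p = 0.101 to 0.135).

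**Figure D2:**
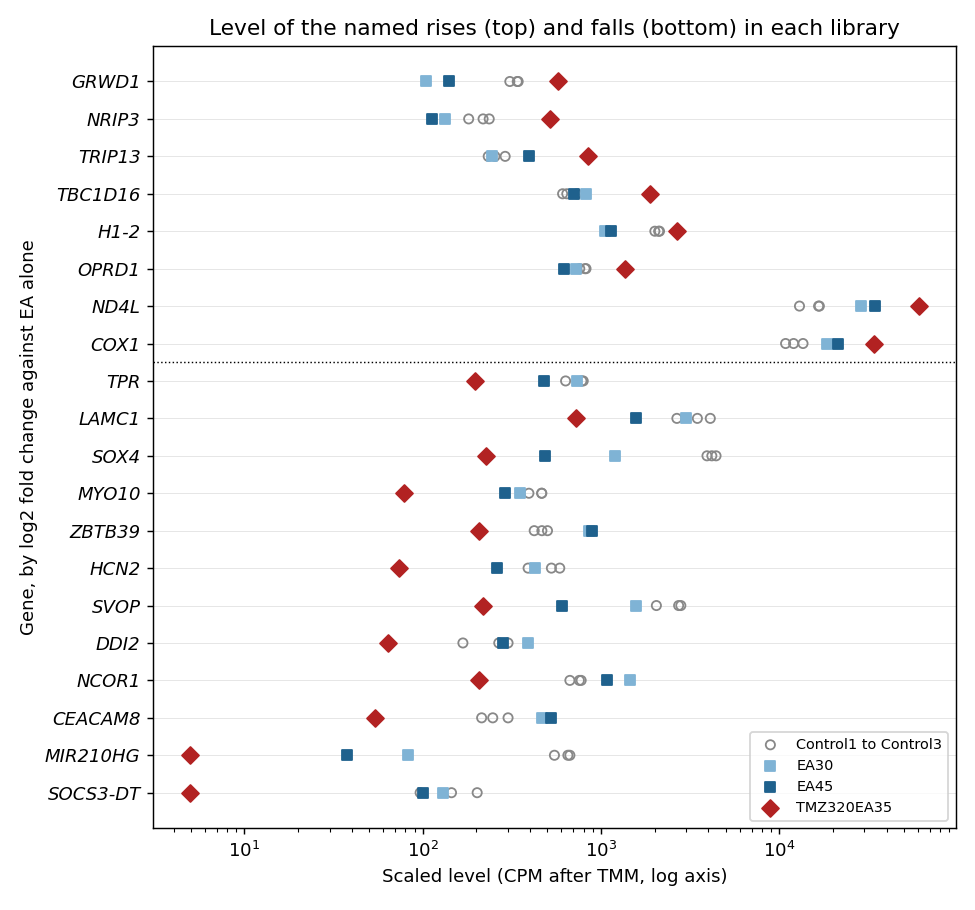
Level of the 8 rises and 12 falls in each of the 6 libraries (CPM after TMM, log axis), with genes ordered by log2 fold change against EA alone and a dotted line between falls and rises. Grey circles are the controls, squares EA30 and EA45, and red diamonds TMZ320EA35, which lies outside the range of both EA libraries and of the 3 controls for all 20 genes.

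Among the falls, MIR210HG and SOX4 had already been lower with EA alone than in the controls. MIR210HG (NR_038262.1) is the host RNA of miR-210, a microRNA known for its induction in hypoxia. It had 160, 182 and 203 counts in the controls, 35 in EA30, 11 in EA45 and 1 in TMZ320EA35. The level in TMZ320EA35 was 7.67% of that in EA alone, with a 95% exact interval from counting error of 0.19 to 44.9%. The log2 fold change was -3.54 (SE 0.93, edgeR adjusted p = 0.0491) against EA alone and -3.32 for EA alone against the controls (edgeR adjusted p = 0.000294). MIR210HG was the 1 transcript of the 39 that did not pass against EA45 alone (edgeR adjusted p = 0.0767), and 12 of 18 alternatives ended its call, with adjusted p-values up to 0.258. SOX4 (NM_003107.3), a transcription factor gene tied to stemness in glioma, had 3932, 4419 and 4186 CPM in the controls, 1196 CPM in EA30, 488 CPM in EA45 and 227 CPM in TMZ320EA35. The combination was the lowest of the 6 libraries. Its log2 fold change was -1.90 (SE 0.48, edgeR adjusted p = 0.0395) against EA alone and -2.30 for EA alone against the controls (edgeR adjusted p = 0.00114). For SOX4, 6 of 18 alternatives ended the call, with adjusted p-values up to 0.161. Without EA30 the log2 fold change against EA alone was -1.13 for SOX4 and -2.85 for MIR210HG. Without EA45 these values were -2.41 and -3.97.

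Promoters are shown for MIR210HG and SOX4, both lower with EA alone too, and for H1-2, the most abundant nuclear rise. Of the 20 named genes, 16 had promoter sequences in RefSeq (GRCh38.p14), each from 250 bases before to 50 bases after the start. Capitals mark letters matched on either strand: ACGTG, the core bound by hypoxia-inducible factors, in MIR210HG; CCAAT in SOX4; and CCAAT and AAACACA, a box known from H1 genes, in H1-2. In all 35116 promoters of the table, ACGTG or its reverse occurred in 21.4%, CCAAT in 34.6% and AAACACA in 5.64%. Of the 16 genes, 4 held ACGTG (MIR210HG, HCN2, MYO10 and the rise OPRD1), 5 held CCAAT (SOX4, H1-2, TPR, NCOR1 and MIR210HG, where it is left unmarked) and 2 held AAACACA (H1-2 and CEACAM8). The match is a description of the letters and not a site.
MIR210HG (chr11:568408-568707, minus strand, 1 match): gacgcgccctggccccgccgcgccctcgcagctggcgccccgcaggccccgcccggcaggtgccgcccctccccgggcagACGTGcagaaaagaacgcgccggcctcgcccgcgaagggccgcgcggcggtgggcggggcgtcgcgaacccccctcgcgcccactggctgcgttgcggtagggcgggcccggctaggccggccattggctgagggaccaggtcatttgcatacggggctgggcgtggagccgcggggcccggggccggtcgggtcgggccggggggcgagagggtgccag
SOX4 (chr6:21593501-21593800, plus strand, 4 matches): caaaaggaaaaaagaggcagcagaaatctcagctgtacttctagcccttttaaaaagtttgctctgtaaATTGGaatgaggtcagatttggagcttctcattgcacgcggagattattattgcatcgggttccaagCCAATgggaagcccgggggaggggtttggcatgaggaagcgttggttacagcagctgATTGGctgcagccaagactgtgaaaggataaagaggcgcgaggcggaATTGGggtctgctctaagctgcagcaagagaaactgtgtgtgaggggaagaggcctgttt
H1-2 (chr6:26056421-26056720, minus strand, 1 match to CCAAT and 2 to AAACACA): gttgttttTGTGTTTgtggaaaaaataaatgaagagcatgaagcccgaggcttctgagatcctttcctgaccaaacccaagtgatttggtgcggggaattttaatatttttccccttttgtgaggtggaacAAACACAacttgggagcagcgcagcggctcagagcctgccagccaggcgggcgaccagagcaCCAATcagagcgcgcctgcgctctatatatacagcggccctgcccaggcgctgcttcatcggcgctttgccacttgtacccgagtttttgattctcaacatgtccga

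CEACAM8, NCOR1 and ZBTB39 were higher in both EA libraries than in any control and lower in TMZ320EA35 than in any control. CEACAM8 (XM_017026197.2), a cell adhesion gene known from granulocytes, had 247, 301 and 214 CPM in the controls, 469 CPM in EA30, 523 CPM in EA45 and 54.3 CPM in TMZ320EA35. NCOR1 (NM_006311.4), the gene of a corepressor that works with histone deacetylases, had 774, 756 and 669 CPM in the controls, 1446 CPM in EA30, 1083 CPM in EA45 and 207 CPM in TMZ320EA35. ZBTB39 (NM_014830.3), a zinc finger gene, had 466, 501 and 422 CPM in the controls, 854 CPM in EA30, 894 CPM in EA45 and 207 CPM in TMZ320EA35. Against EA alone the log2 fold change was -3.18 (SE 0.47, edgeR adjusted p = 0.00866) for CEACAM8 and -2.61 (SE 0.34, edgeR adjusted p = 0.00619) for NCOR1. For ZBTB39 it was -2.07 (SE 0.32, edgeR adjusted p = 0.00866). CEACAM8 overlaps LIPE-AS1, ZBTB39 overlaps ACKR5 and NCOR1 overlaps TTC19 in the annotation, and NCOR1 has related copies elsewhere, so reads of these genes may be mixed; whether counting used the strand is not given in the sources used here.

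LAMC1, SVOP, HCN2, TPR and MYO10 were lowest in TMZ320EA35 and intermediate in EA45. LAMC1 (NM_002293.4), the gene of laminin gamma 1 in basement membranes, had 2665, 3473 and 4103 CPM in the controls, 2984 CPM in EA30, 1568 CPM in EA45 and 720 CPM in TMZ320EA35. SVOP (NM_018711.5), related to transporters of synaptic vesicles, had 2045, 2804 and 2726 CPM in the controls, 1569 CPM in EA30, 602 CPM in EA45 and 217 CPM in TMZ320EA35. EA45 was below EA30 and below every control for both genes. Their log2 fold changes against EA alone were -1.66 (SE 0.40, edgeR adjusted p = 0.0357) for LAMC1 and -2.33 (SE 0.54, edgeR adjusted p = 0.0281) for SVOP. The value of SVOP was -1.50 without EA30 and -2.86 without EA45. HCN2 (NM_001194.4) encodes a cation channel opened by hyperpolarization and had 390, 587 and 527 CPM in the controls, 427 CPM in EA30, 261 CPM in EA45 and 74 CPM in TMZ320EA35. TPR (NM_003292.3), a gene of the nuclear pore basket, had 795, 781 and 633 CPM in the controls, 729 CPM in EA30, 481 CPM in EA45 and 197 CPM in TMZ320EA35. MYO10 (NM_012334.3), the gene of a myosin of filopodia, had 394, 465 and 465 CPM in the controls, 352 CPM in EA30, 289 CPM in EA45 and 79 CPM in TMZ320EA35. The log2 fold changes against EA alone were -2.22 (SE 0.50, edgeR adjusted p = 0.0266) for HCN2, -1.62 (SE 0.37, edgeR adjusted p = 0.0281) for TPR and -2.02 (SE 0.41, edgeR adjusted p = 0.0224) for MYO10. With limma-voom all 5 missed the threshold, with adjusted p-values of 0.0587 for LAMC1 and MYO10, 0.0835 for SVOP, 0.0838 for HCN2 and 0.0702 for TPR. At a mean of at least 50 counts LAMC1 (edgeR adjusted p = 0.061) and SVOP (edgeR adjusted p = 0.0558) also missed it, and so did TPR without Control2 (edgeR adjusted p = 0.0637). In the annotation TPR overlaps PRG4, LAMC1 overlaps LAMC1-AS1, and HCN2, SVOP and MYO10 overlap pseudogenes, small RNA genes or unnamed genes.

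DDI2 (NM_032341.5), an aspartic protease gene, had 267, 301 and 168 CPM in the controls, 392 CPM in EA30, 282 CPM in EA45 and 64.2 CPM in TMZ320EA35, with EA45 within the range of the controls. Its log2 fold change was -2.39 (SE 0.54, edgeR adjusted p = 0.0272), and RSC1A1 lies within its span. SOCS3-DT (NR_110847.1), a noncoding RNA that starts beside SOCS3, had 59, 27 and 44 counts in the controls, 55 in EA30, 29 in EA45 and 1 in TMZ320EA35. The level was 4.2% of that in EA alone, with a 95% exact interval of 0.105 to 24% (log2 fold change -4.43 (SE 0.95, edgeR adjusted p = 0.0232)). With limma-voom neither DDI2 (adjusted p = 0.0732) nor SOCS3-DT (adjusted p = 0.135) passed. EA alone and the controls overlapped for SOCS3-DT, which overlaps SOCS3 in the annotation.

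Of 62 Wnt pathway genes listed, 51 were at 0 in the 6 libraries and 5 were tested, with a median log2 fold change of -1.31 against EA alone and 1 call. Over all 628 transcripts the median was -0.10 and 6.21% were called. The call was TCF7L1 (NM_031283.3), which encodes a repressor at Wnt target genes and was abundant, at 10046, 9786 and 9900 CPM in the controls, 9106 CPM in EA30, 7722 CPM in EA45 and 4614 CPM in TMZ320EA35. It was lower in TMZ320EA35 than in the other 5 libraries, with a log2 fold change of -0.87 (SE 0.19, edgeR adjusted p = 0.0234) against EA alone. The call of TCF7L1 ended in 4 of 18 alternatives, among them without Control2 (edgeR adjusted p = 0.0765). WNT5A (XM_017007127.1), a ligand, had 579, 670 and 590 CPM in the controls, 760 CPM in EA30, 750 CPM in EA45 and 350 CPM in TMZ320EA35. The combination was again the lowest, but the log2 fold change of -1.11 missed the threshold (SE 0.29, edgeR adjusted p = 0.0512), and 9 of 18 alternatives brought it past, among them the Wald test of DESeq2 (adjusted p = 0.0461) and the fits without EA30 (edgeR adjusted p = 0.012) and without EA45 (edgeR adjusted p = 0.00338). FZD7 (NM_003507.1), a receptor, had 356, 512 and 376 CPM in the controls, 469 CPM in EA30, 285 CPM in EA45 and 153 CPM in TMZ320EA35. Its log2 fold change of -1.31 did not pass (SE 0.45, edgeR adjusted p = 0.112), and 5 of 18 alternatives brought it past, among them without EA45 (edgeR adjusted p = 0.00486). The inhibitor DKK4 (XM_011544488.2) had 25 counts in EA30, 12 in EA45 and 3 in TMZ320EA35, and the corepressor gene TLE6 14, 8 and 2, with edgeR adjusted p-values of 0.259 and 0.405. NSD3 (NM_023034.2), a histone methyltransferase gene, also fell. It had 3696, 3538 and 3203 CPM in the controls, 3086 CPM in EA30, 2630 CPM in EA45 and 1416 CPM in TMZ320EA35, with a log2 fold change of -1.01 (SE 0.23, edgeR adjusted p = 0.0281) against EA alone, and 3 of 18 alternatives ended its call, among them without Control2 (edgeR adjusted p = 0.087). Since the study had picked TCF7L1, WNT5A, FZD7 and DKK4 from the same libraries, their values do not count as separate evidence.

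Of the 13 mitochondrial genes, 4 passed against EA alone, 2 in each direction, and the median log2 fold change was -0.29, against -0.10 and 6.21% called over all 628 transcripts. ND4L, a subunit of complex I, rose, with 12988, 16783 and 16621 CPM in the controls, 28694 CPM in EA30, 34629 CPM in EA45 and 60840 CPM in TMZ320EA35. COX1, the catalytic subunit of cytochrome c oxidase, rose too, with 10854, 12035 and 13592 CPM in the controls, 18467 CPM in EA30, 21402 CPM in EA45 and 33897 CPM in TMZ320EA35. Both genes were higher with EA alone than in the controls and higher again in the combination. The log2 fold changes against EA alone were 0.94 (SE 0.18, edgeR adjusted p = 0.0213) for ND4L and 0.77 (SE 0.17, edgeR adjusted p = 0.0272) for COX1. CYTB, the subunit of complex III, had 37247, 37848 and 36804 CPM in the controls, 82920 CPM in EA30, 75803 CPM in EA45 and 52846 CPM in TMZ320EA35, and ND3 of complex I had 54889, 57732 and 63700 CPM in the controls, 77909 CPM in EA30, 69752 CPM in EA45 and 46599 CPM in TMZ320EA35. For CYTB the combination lay between the controls and EA alone, and for ND3 below both. The log2 fold changes were -0.59 (SE 0.13, edgeR adjusted p = 0.0234) for CYTB and -0.66 (SE 0.14, edgeR adjusted p = 0.0224) for ND3. These 4 calls stand without a minimum fold change, since none reached 1 on the log2 scale, and the Wald test of DESeq2 ended those of CYTB (adjusted p = 0.155) and ND3 (adjusted p = 0.1). When low counts were kept the call of COX1 ended (edgeR adjusted p = 0.141). Without Control2 the calls of COX1, CYTB and ND3 ended too (edgeR adjusted p = 0.0765, 0.101 and 0.0765), while that of ND4L held (edgeR adjusted p = 0.0363).

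The 13 genes held 48.6, 48.4 and 49.1% of all counts in the controls, 58.2% in EA30 (95% Wilson interval 58 to 58.3%), 54.8% in EA45 (54.6 to 55%) and 54.9% in TMZ320EA35 (54.7 to 55.1%). The total share in the combination was close to that in EA45. Of the counts on transcripts with a gene symbol, it was 57.2%, below 57.4% in EA45 and 60.8% in EA30. ND4L made up 10.5% of mitochondrial counts in TMZ320EA35, against 4.27% in EA30, 5.64% in EA45 and 2.9 to 3.73% in the controls. COX1 and ND1 also had their highest shares there, 5.86 and 5.91%, against 2.75 and 3.31% in EA30 and 3.49 and 3.78% in EA45. ND1 did not pass the test (log2 fold change 0.59, edgeR adjusted p = 0.0782), but did without EA45 (edgeR adjusted p = 0.0205). ATP6, lower in the combination, was nearer to the threshold (log2 fold change -0.58, edgeR adjusted p = 0.0575) and passed in 7 of 17 alternatives, against 5 for ND1. ND3 had its lowest share there, 8.05%, against 11.6% in EA30 and 11.4% in EA45. For ATP8, which overlaps ATP6 as ND4L overlaps ND4, the share was 1.06% in TMZ320EA35, 1.18% in EA45, 2.1% in EA30 and 3.65 to 4.63% in the controls. Against EA alone, ND4 did not rise with ND4L (log2 fold change -0.29). The share of ND4 was 14.2% in TMZ320EA35, 14.5% in EA45, 16.7% in EA30 and 11.3 to 14.2% in the controls. Whether the counts of ND4L stand for an RNA separate from ND4 was not tested. Reads in these overlaps, and reads from nuclear copies of the mitochondrial genome, make the counts of single genes uncertain. Intervals cover counting error only, since the reads carry no molecular identifiers here.

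**Figure D3:**
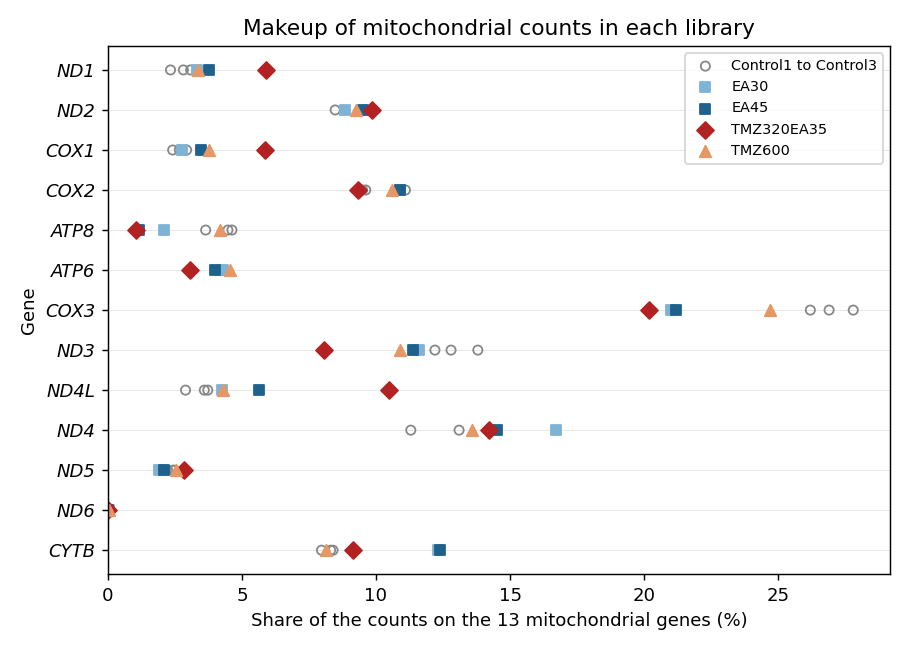
Share of each mitochondrial gene among the counts on all 13 (%), in the 3 controls (circles), EA30 and EA45 (squares), TMZ320EA35 (diamonds) and TMZ600 (triangles). ND4L lies at 10.5% in TMZ320EA35 and at 2.9 to 5.64% in the controls, EA30, EA45 and TMZ600, and ND1 and COX1 are also highest in TMZ320EA35.

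Genes for the repair of TMZ lesions could hardly be measured: of 40 listed, 36 were at 0 in the 6 libraries, MGMT among them, and 2 were tested, with no call, where 6.21% of all 628 transcripts were called. TDP2 (NM_016614.3), an enzyme that removes topoisomerase adducts from DNA ends, had 216, 218 and 188 CPM in the controls, 352 CPM in EA30, 818 CPM in EA45 and 1446 CPM in TMZ320EA35. It was highest in the combination, and the log2 fold change of 1.32 against EA alone missed the threshold (SE 0.40, edgeR adjusted p = 0.0743). In 8 of 18 alternatives it passed, with log2 fold changes of 0.79 without EA30 (edgeR adjusted p = 0.0488) and 2.03 without EA45 (edgeR adjusted p = 8.81e-05). ALKBH3, a demethylase of alkylated DNA, had 133 counts in EA30, 72 in EA45 and 20 in TMZ320EA35 (log2 fold change -1.51, SE 0.52, edgeR adjusted p = 0.114). All 28 p53 targets listed had too few counts to be tested, and 27 of them were at 0.

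The complement gene C3 (NM_000064.4) fell, with 1750, 2181 and 1625 CPM in the controls, 2501 CPM in EA30, 3022 CPM in EA45 and 1026 CPM in TMZ320EA35 and a log2 fold change of -1.43 (SE 0.28, edgeR adjusted p = 0.0213) against EA alone. EA30 and EA45 were above every control and the combination below every control. Several further genes, most of them apart from the controls in both EA libraries, did not pass against EA alone. The ligand gene TNFSF9 had 335 CPM in EA30, 959 CPM in EA45 and 1160 CPM in TMZ320EA35 (log2 fold change 0.85, edgeR adjusted p = 0.342). CD70 (NM_001252.5), another ligand of the TNF family, had 1073, 3638 and 5675 CPM in the same order, against 1421, 1422 and 1384 CPM in the controls, so that EA30 was below and EA45 above every control (1.27, edgeR adjusted p = 0.144). The kinetochore gene NDC80 had 297, 89.4 and 237 CPM (0.26, edgeR adjusted p = 0.826), so that the combination lay between the EA libraries. TALDO1, an enzyme of the pentose phosphate pathway, had 4588, 5718 and 4905 CPM (-0.07, edgeR adjusted p = 0.875). The RNA polymerase II subunit gene POLR2L had 7127, 3256 and 4214 CPM (-0.30, edgeR adjusted p = 0.649). LURAP1L (NM_203403.2) had 701, 2049 and 2305 CPM (0.75, edgeR adjusted p = 0.356), and STK11, a kinase gene of energy sensing, 580, 523 and 375 CPM (-0.56, edgeR adjusted p = 0.285). Most of these values turned on the choice of EA library, in fits where only the controls gave the spread. Without EA30 or without EA45, the log2 fold change of CD70 was 0.61 or 2.39, and both passed (edgeR adjusted p = 0.0138 and 2.93e-07). Without EA45, TNFSF9 (1.78, edgeR adjusted p = 0.0027) and LURAP1L (1.70, edgeR adjusted p = 4.72e-05) passed, while without EA30 they were at 0.25 and 0.14 and did not. POLR2L was at -0.77 without EA45, which passed (edgeR adjusted p = 0.000991), and at 0.34 without EA30. NDC80 was at 1.37 without EA30, which passed (edgeR adjusted p = 0.0246), and at -0.34 without EA45. Of 18 alternatives, 7 brought CD70 past the threshold, 4 each TNFSF9 and LURAP1L, 3 POLR2L and 2 NDC80. Another tested transcript of CD70 had a log2 fold change of 0.04, or -0.48 without EA30 and 0.69 without EA45. For another of LURAP1L these values were 0.45, 0.22 and 0.65. Neither passed against EA alone, nor in any of 17 alternatives. A p above the threshold does not show that levels were equal.

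The tubulin genes TUBB6, TUBB2B and TUBA4B, 3 tested of 17 listed, had log2 fold changes of 0.41, 0.33 and -0.68 against EA alone, with edgeR adjusted p-values of 0.417, 0.78 and 0.683. TUBB6 had 777, 702 and 798 CPM in the controls, 425 CPM in EA30, 560 CPM in EA45 and 651 CPM in TMZ320EA35. The combination was between EA45 and the controls. The ribosomal protein genes RPS6 and RPLP2, among the most abundant nuclear transcripts, had log2 fold changes of 0.11 and 0.08 (edgeR adjusted p = 0.663 and 0.781) and RPL37 -0.88 (edgeR adjusted p = 0.405); these genes have many processed copies. Of 25 gene lists examined, 7 had 0 transcripts tested: p53 targets, replication, the integrated stress response, cholesterol synthesis, NF-kB and cytokines, immediate early genes, and apoptosis. Over all 628 transcripts the median was -0.10 and 6.21% were called, so 0 calls among so few transcripts says little. Of the other lists, solute carriers had 15 transcripts tested with a median of 0.22, zinc finger proteins 6 with 0.18, and the interferon response 3 (BST2, IFITM1 and IFITM2) with -1.24, each with 0 calls. The 6 zinc finger genes all had ZNF symbols, and that list did not hold ZBTB39, which was called lower. Nuclear genes of oxidative phosphorylation had 3 tested (ATP5F1D, NDUFS6 and UQCR11) with a median of -0.37 and 0 calls, and the mitosis list had NDC80 and PLK1 with a median of 0.33 and 0 calls. The mitosis list did not hold the spindle checkpoint gene TRIP13, which was called higher. Extracellular matrix and hypoxia had 1 each, LAMC1 and MIR210HG, both lower. Heat shock had DNAJA1 with 0.21 and 0 calls, and the TNF family list 3 (of CD70 and TNFSF9) with 0.85 and 0 calls. That list did not hold the decoy receptor gene TNFRSF10D, which was called lower. TALDO1 alone stood for the NRF2 targets and for the pentose phosphate and glycolysis list. These counts describe those genes and not the pathway.

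Against the controls, 176 of 628 transcripts passed in TMZ320EA35 (28.0%) and 108 for EA alone (17.2%) in the same fit. Without Control1 they were 66 and 26, without Control2 122 and 74, and without Control3 90 and 27. Without EA30 they were 255 and 229, and without EA45 251 and 88. These comparisons share the controls, and the first shares its library with the comparison against EA alone, so their values are given side by side only. For ND4L the log2 fold change against the controls was 1.98 in TMZ320EA35 (edgeR adjusted p = 8.05e-05) and 1.03 for EA alone (edgeR adjusted p = 0.00095). For SVOP it was -3.54 (edgeR adjusted p = 0.00186) and -1.21 (edgeR adjusted p = 0.0317). For NCOR1 it was -1.82 (edgeR adjusted p = 0.00331) and 0.79 (edgeR adjusted p = 0.0232), in opposite directions. Without any 1 control the calls of SVOP (edgeR adjusted p = 0.0697 to 0.146) and NCOR1 (edgeR adjusted p = 0.087 to 0.127) for EA alone ended. For TPR it was -1.90 (edgeR adjusted p = 0.0044) and -0.28 (edgeR adjusted p = 0.464), where without EA30 EA alone passed (edgeR adjusted p = 0.0386).

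With EA30 and EA45 kept as separate conditions, 60 transcripts (9.55%) passed against EA30 and against EA45 alike and in the same direction, 42 lower and 18 higher. They included 38 of the 39, all but MIR210HG. Against EA30 on its own 172 passed and against EA45 on its own 71. In this fit only the controls gave the spread, on 2 residual degrees of freedom. Without Control1, Control2 or Control3, left out after seeing the data, 53, 50 and 66 passed against both.

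A further view of TMZ came from TMZ600, a library treated with 600 µM TMZ without EA, which was compared with the controls. The fold changes of this comparison and of TMZ320EA35 against EA alone have no library in common, and the TMZ dose differed. The 3 controls are the baseline here and also gave part of the spread by which the 39 transcripts were called, so the set is not independent of them. In TMZ600, 53 of 628 transcripts passed (8.44%). In fits chosen after seeing the data, edgeR called 35 without Control1, 42 without Control2 and 6 without Control3. Of the 39 transcripts, 33 (84.6%) had the same direction in TMZ600, against 389 of all 628 (61.9%). This held for 26 of the 31 falls and 7 of the 8 rises, while over all transcripts it was 61.2% of 330 lower and 62.8% of 298 higher values. Of the 39, 12 also passed in TMZ600 in the same direction (30.8%) and 1 in the opposite direction (2.56%). Over all 628 transcripts these were 40 (6.37%) and 13 (2.07%).

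Side by side, MIR210HG had a log2 fold change of -3.54 in TMZ320EA35 against EA alone and -3.11 in TMZ600 against the controls (edgeR adjusted p = 8.6e-06). SOX4 had -1.90 and -1.38 (edgeR adjusted p = 8.6e-06), SVOP -2.33 and -1.09 (edgeR adjusted p = 0.000738) and MYO10 -2.02 and -1.05 (edgeR adjusted p = 0.028). TCF7L1 had -0.87 and -0.79 (edgeR adjusted p = 0.000187) and LAMC1 -1.66 and -0.65 (edgeR adjusted p = 0.0407). Of the rises, TBC1D16 had 1.29 and 1.09 (edgeR adjusted p = 0.000202) and COX1 0.77 and 0.55 (edgeR adjusted p = 0.00944). NCOR1 was the transcript that passed in both with opposite directions, at -2.61 and 0.60 (edgeR adjusted p = 0.0242), and its call in TMZ600 ended without any 1 control (edgeR adjusted p = 0.0605 to 0.172). Without Control3 the TMZ600 calls of SVOP, MYO10, LAMC1, TBC1D16 and COX1 ended (edgeR adjusted p = 0.121, 0.17, 0.264, 0.0507 and 0.0507), and without Control1 those of MYO10 and COX1 (edgeR adjusted p = 0.0622 and 0.0591). In TMZ600 the values of GRWD1, TRIP13 and H1-2 were 0.32, 0.03 and -0.01, with edgeR adjusted p-values of 0.529, 0.968 and 0.977. Whether the size of the change differed between both TMZ settings was not tested.

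**Figure D4:**
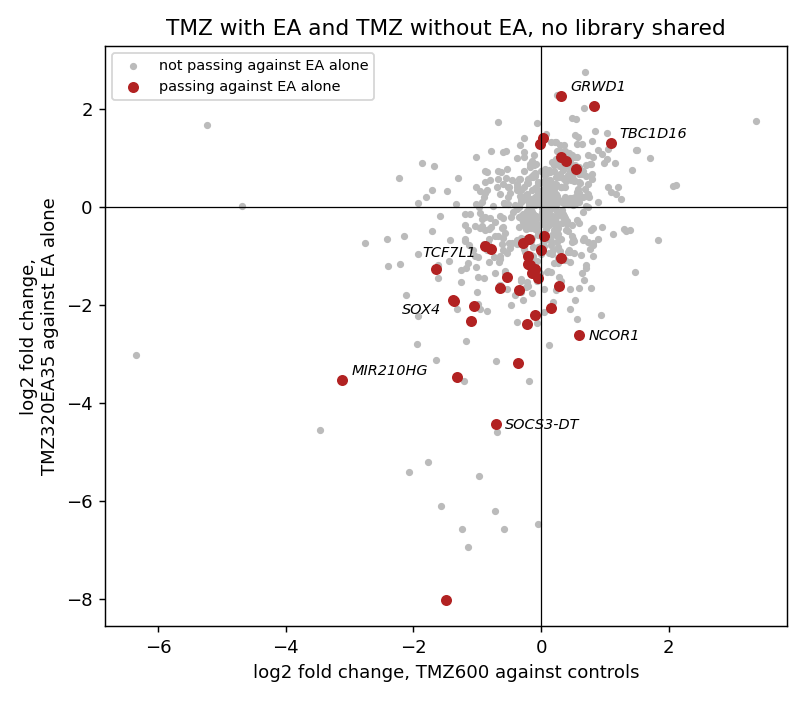
Log2 fold change of TMZ320EA35 against EA alone (vertical axis) and of TMZ600 against the 3 controls (horizontal axis) for 628 transcripts, 1 point each, with the 39 that passed against EA alone in red. Of the red points, 33 lie in the quadrants of equal direction, and NCOR1 lies at -2.61 and 0.60.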

How the data were processed

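The authors extracted RNA from U-87 cells after 24 h, made QuantSeq 3′ mRNA libraries and deposited 1 table of raw counts per RefSeq transcript. The submitters' processing notes name HISAT2, HTSeq and the build hg38; versions, annotation release and strand setting are not given in the sources used here. RefSeq for GRCh38.p14 gave the symbols. Accession with version matched 57755 transcripts and accession alone 56301, while 45011, holding 4.63% of counts, stayed without a match. SE is the standard error.

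Counts of 6 libraries were fitted with edgeR 4.0.16 in R 4.3.3 (TMM, quasi-likelihood F-test, 3 groups: untreated, EA alone, TMZ320EA35), with Benjamini-Hochberg adjustment over 628 transcripts and a threshold of 0.05. TMZ600 was fitted with the controls alone. The fit was tested on simulated data in which TMZ320EA35 varied like the other libraries, so that test cannot check this assumption. Named genes are the 12 largest rises and 12 largest falls, of which 8 and 12 qualified, among called transcripts with a symbol, a mean of at least 30 counts and a level outside both EA libraries, with the mitochondrial genes and genes named earlier. Members and lists were chosen with earlier results of these data known. The controls differed by more than counting error (chi-square per degree of freedom 3.59 to 5.79). Alternatives used DESeq2 1.42.0, limma 3.58.1, other filters, scalings and groupings, and left out single libraries. Figures used Python 3.11.15 and matplotlib 3.10.9.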

Additional observations from a re-analysis of the deposited data

How the results depend on the processing

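The number of transcripts that passed in TMZ320EA35 against EA alone went from 39 to 61 when low counts were kept. It also changed with the treatment of the EA libraries, to 137 with a coefficient for each condition (56 higher, 81 lower) and 151 with the EA value interpolated at 35 µM. With EA30 or EA45 alone as the EA library, chosen after seeing the data, it was 172 and 71. With a coefficient for each condition, the spread no longer holds the difference between EA30 and EA45. Without single libraries it ranged from 0 to 164. The number outside the EA range went from 39 to 61, 136, 148, 165 and 69 in the same order, and was 0 to 23 without single controls (23 without Control2). For TMZ320EA35 against the controls, 176 became 267 with a coefficient for each condition and 66 to 255 without single libraries. For EA alone against the controls, 108 became 218 with a coefficient for each condition, 183 interpolated, 68 at a minimum of 1 for the absolute log2 value, and 238 with EA45 alone, and ranged from 26 to 229 without single libraries. Other tools without Control1, Control2 or Control3 in turn were chosen after seeing the data. Against EA alone, in all and outside the EA range, the Wald test of DESeq2 gave 26, 25 and 25 and limma-voom 0, 12 and 0. For TMZ320EA35 against the controls they gave 99, 93 and 109, and 30, 93 and 50. For EA alone against the controls they gave 61, 55 and 61, and 19, 75 and 14. The cause of the changes without single controls was not tested. Rises were 20.5% of calls, and 28.8% with the Wald test of DESeq2 (15 of 52) and 34.6% with limma-voom (9 of 26). Over all fits with calls, this share ranged from 14.8% with low counts kept to 50% with limma-voom without Control2 (6 of 12). Falls were thus not more frequent than rises in every fit. The share with the same direction in TMZ600 was 79.4 to 87.2% over its alternatives, against 84.6%. Those without Control1, Control2 or Control3 (82.1, 79.5 and 87.2%) kept the 39 transcripts called with all controls. Since edgeR called 0 transcripts without Control1 or Control3, these shares do not show that the calls are stable. Of counts on transcripts with a symbol, the mitochondrial share was 57.2% in TMZ320EA35, 57.4% in EA45 and 60.8% in EA30, and of all counts 54.9, 54.8 and 58.2%. Over 933 repeats for single named genes, 772 kept their side of the threshold, 91 fell short of it and 70 newly passed. The 933 pool called and uncalled transcripts, and all 91 losses were among those called. Calls thus ended more often than the pooled numbers show. No paired analysis was possible because the treated conditions have 1 library each.

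With 213566 counts, TMZ320EA35 limits the comparisons that contain it. EA dose and TMZ cannot be separated beyond the bracket of 30 and 45 µM, and 1 library per treatment gives no measure of its own spread. Most genes of most pathways were listed at 0.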

Other observations

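The remaining transcripts that passed against EA alone were named only after their values were seen. Lower in TMZ320EA35 were TLN1, which encodes talin, an adaptor of integrins, with 2772 counts in EA30, 1285 in EA45 and 488 in the combination (log2 fold change -1.19), and ROCK1, a kinase gene of the actin cytoskeleton, with 1827, 856 and 355 counts (-1.05). Counts here are not scaled for depth. ROCK1 had 560, 510 and 539 counts in the controls, and the log2 fold change of TMZ320EA35 against them was -0.07 (edgeR adjusted p = 0.857). RRAGA, a GTPase gene of amino acid sensing, behaved alike, with -0.80 against EA alone and -0.07 against the controls (edgeR adjusted p = 0.802). The decoy receptor gene TNFRSF10D had a log2 fold change of -1.27 against EA alone and -1.64 in TMZ600 against the controls. LMNB2, a lamin gene, had -1.27, the cystatin gene CST6 -1.35, CSDC2 -1.46, PIANP -1.17 and DCHS1 -0.75. CMKLR2-AS had 45 counts in EA30, 32 in EA45 and 0 in TMZ320EA35, a level at least 7.28-fold lower than in EA alone if 3 counts are allowed for; reads of this antisense RNA and of CMKLR2 cannot be told apart without strand. The other 4 had no gene symbol.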
